A study of Mus musculus with 4 samples.

Results

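Gata6 binding was examined at the loci of 4 genes of the sebaceous lineage, Prdm1, Pparg, Scd1 and Myc, in cultured mouse keratinocytes. A listed Gata6 peak was taken as a member when its midpoint lay, on build mm9, between 43.95 and 44.40 Mb of chromosome 10 (Prdm1), between 115.15 and 115.60 Mb of chromosome 6 (Pparg), between 44.30 and 44.65 Mb of chromosome 19 (Scd1) or between 61.60 and 62.05 Mb of chromosome 15 (Myc). The windows were drawn around the genes, not around peaks, but genes and windows were chosen with earlier results of these data known. They held 36 of the 11962 peaks that the list has on autosomes, with 175 more on chromosome X, namely 5 at Prdm1, 12 at Pparg, 7 at Scd1 and 12 at Myc.

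The study comprised 4 libraries from primary keratinocytes of dorsal mouse skin on a C57BL6/CBA background. All of them came from K14deltaNLef1 cells, in which the keratin 14 promoter of basal epidermal cells drives a Lef1 protein, an effector of Wnt signals, that lacks its N-terminus, and in which Gata6 was overexpressed from a lentivirus on irradiated 3T3-J2 fibroblast feeders. In the label of 1 Gata6 library the genotype carries a further N at its end, and it was read as the same. Chromatin was precipitated with 2 different Gata6 antibodies, from R&D Systems and from Cell Signaling (1 library each), while a Flag antibody (1 library) and input DNA (1 library) served as controls. The occupancy mapped is therefore that of Gata6 in transgenic cells that overexpressed it. No library without the lentivirus was analysed here, so overexpressed and any endogenous Gata6 cannot be told apart. The data are a single overlap list for the whole series, with no value per library, so there is no replicate error for any value below and the library depth behind the peaks is unknown. Cell identity could not be checked against marker genes, since the list holds no expression values.

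Sebaceous glands arise from the same epithelium as the hair follicle and fill their cells with lipid until the cells burst. Gata6 is a zinc-finger transcription factor that binds sites built around the letters GATA and is known from the upper hair follicle and the sebaceous duct. Truncated Lef1 blocks Wnt signalling in the epidermis, and mice that carry it under the keratin 14 promoter are known for ectopic sebaceous differentiation and sebaceous tumours. Prdm1 encodes Blimp1, a transcriptional repressor linked to sebaceous and epidermal differentiation, which can repress Myc. Pparg encodes the nuclear receptor that drives lipid-storing differentiation in fat cells and sebocytes. Scd1 encodes stearoyl-CoA desaturase, an enzyme that makes monounsaturated fatty acids and without which sebaceous glands waste. Myc encodes a growth-promoting transcription factor whose activation in epidermis drives cells into proliferation and the sebaceous fate.

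The sequences beneath the peaks were not read, for want of the mm9 genome. The RefSeq promoter table, on build GRCm38.p6, had entries for 2 of the 4 genes, 1 for Prdm1 and 3 for Pparg. They are on another build than the peaks, and no peak was placed on them. The 250 bases before the annotated start of the Prdm1 entry and of the third Pparg entry are shown as the promoter letters searched for the Gata6 core, the Pparg one being the entry poorest in guanine and cytosine. Both are written 5′ to 3′ in lower case on the strand of the gene, and capitals would mark GATA or its reverse complement TATC.
Prdm1, GRCm38.p6 chr10:44458749-44458998, minus strand: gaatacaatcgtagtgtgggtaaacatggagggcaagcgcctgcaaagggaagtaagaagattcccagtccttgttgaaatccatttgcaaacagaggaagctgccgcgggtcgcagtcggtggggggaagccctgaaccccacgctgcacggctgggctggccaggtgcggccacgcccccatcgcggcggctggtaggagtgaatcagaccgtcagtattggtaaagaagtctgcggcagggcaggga
Pparg, GRCm38.p6 chr6:115421816-115422065, plus strand: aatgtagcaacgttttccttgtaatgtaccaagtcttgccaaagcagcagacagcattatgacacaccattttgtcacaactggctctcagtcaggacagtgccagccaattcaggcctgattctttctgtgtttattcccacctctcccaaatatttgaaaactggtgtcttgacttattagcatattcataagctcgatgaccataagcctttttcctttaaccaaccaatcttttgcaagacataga

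Neither sequence carries a capital. None of the 4 entries (0 of 4) held GATA on either strand in these 250 bases, against 53.6% of the 32851 promoter entries in the table. The guanine and cytosine content was 59.2% for the Prdm1 entry and 82.4%, 63.6% and 40.8% for the 3 Pparg entries, against a median of 52.4% over the table. These letters describe the promoter windows only and carry no statement on Gata6 at these genes.

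Peaks were denser in all 4 windows than on the chromosomes around them. The 36 peaks lay in 1.70 Mb, at 21.2 per Mb, where the densities of the 4 chromosomes would give 10.3 peaks, a ratio of 3.50. The density of all autosomes together was 5.01 per Mb. The Myc window had the highest ratio, with 26.7 peaks per Mb against 5.26 per Mb on chromosome 15, or 5.07 times (95% Wilson interval of the count 2.91 to 8.77 times). The Pparg window had the same density of 26.7 per Mb on a chromosome with 6.37 per Mb, which gave 4.19 times (2.40 to 7.28). The Scd1 window followed with 20 per Mb against 7.36 per Mb, or 2.72 times (1.32 to 5.55). The Prdm1 window, with 11.1 per Mb against 5.51 per Mb, reached 2.02 times, and its interval (0.863 to 4.69) included equality with the chromosome. The 4 intervals overlap, so the order of the loci is not resolved. With windows 0.5 times as wide around the same centres the ratio was 6.98 at Pparg, 5.92 at Myc, 3.23 at Prdm1 and 1.55 at Scd1, and with windows 2 times as wide it was 3.67, 3.81, 3.23 and 2.33. The intervals cover counting error only and treat peaks as independent, although peaks come in groups. They do not cover the choice of genes and windows.

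Set against every complete tile of the same width along its own chromosome, each window was above the median tile, but other tiles reached its count. The tiles that overlap the window itself were not left out, so the tile counts below can include the locus. Of 221 tiles of 0.45 Mb on chromosome 15, 7 (3.17%) held 12 or more peaks, as the Myc window did. When the tiles were shifted by 0.5 of their width, an alternative added after seeing the data, 2 of 221 (0.905%) did. On chromosome 6, 11 of 320 tiles (3.44%) held 12 or more, the Pparg count. On chromosome 19, 20 of 164 tiles of 0.35 Mb (12.2%) held 7 or more, the Scd1 count. On chromosome 10, 53 of 277 tiles (19.1%) held 5 or more, so the count at Prdm1 was a common one. With shifted tiles these shares changed little, to 3.74% for Pparg, 12.1% for Scd1 and 18.1% for Prdm1. The median tile held 2 peaks on chromosome 10 and 1 on each of the other 3 chromosomes, and the fullest tile held 17, 18, 14 and 16 peaks on chromosomes 10, 6, 19 and 15. Tiles without any peak made up 33.9%, 39.1%, 39.6% and 44.8% on the same chromosomes. The chromosome densities that the windows were set against include these empty stretches.

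**Figure D1:**
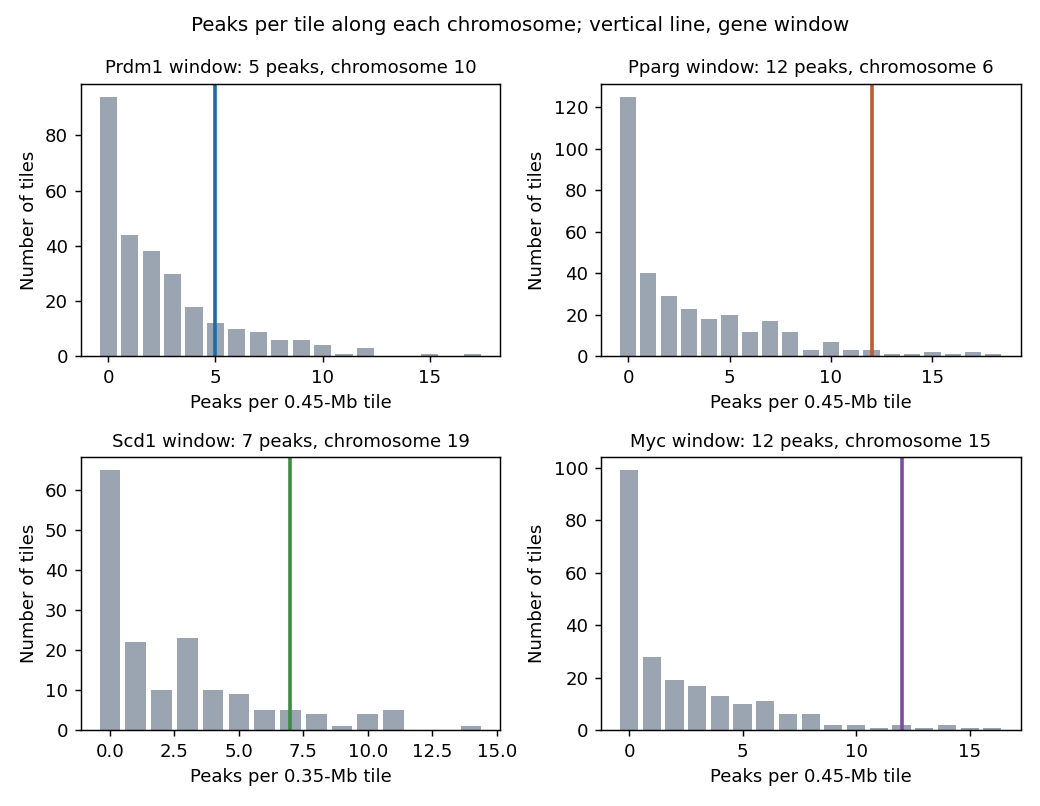
Number of tiles (y axis) by the number of Gata6 peaks per tile (x axis) along the chromosome of each gene, in tiles as wide as the gene window (0.45 Mb, or 0.35 Mb for Scd1), with the count of the gene window as a vertical line. The lines for Pparg and Myc, at 12 peaks, stand in the thin right tail, whereas those for Prdm1 and Scd1, at 5 and 7, stand among better filled counts.

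At Pparg, peaks lay within the gene and in its immediate surroundings. The gene position used, 115.31 to 115.44 Mb, is known to 10 kb. Inside it lay 4 peaks, at chr6:115394528-115394685, chr6:115413049-115413099, chr6:115415916-115416078 and chr6:115430008-115430171, all of them in the part with higher coordinates, which is the downstream part since the gene is on the plus strand. This is a density of 30.8 per Mb within the span. A further peak, chr6:115443520-115443682, lay 3.60 kb past its higher end, which is less than the precision of that end, so this peak may lie inside or outside the gene.

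The 12 Pparg peaks formed a compact trio and a longer group, when peaks up to 50 kb apart were joined. The trio spanned 4.59 kb from 115263239 to 115267828, between 42.2 and 46.7 kb before the lower end of the gene position. It held the 3 lowest name numbers of the locus. The name number is the whole number that ends each deposited peak name. Its meaning is stated neither in the labels nor in the list. Its percentile among the listed numbers of the chromosome was 18.8 for chr6:115263239-115263398 (number 179), 7.28 for chr6:115265922-115266072 (number 68) and 22.6 for chr6:115267710-115267828 (number 218). No listed peak lay in the next 127 kb, a stretch that takes in the lower end of the gene position. The longer group held 9 peaks over 99.2 kb, from 115394528 to 115493711. The closest pair of the 4 loci closed this group, with midpoints 1.65 kb apart at chr6:115491920-115492054 (number 262) and chr6:115493568-115493711 (number 753).

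At Myc, most peaks lay at a distance and on one side. The gene position used, 61.82 Mb, is a single value known to 10 kb. The nearest peak, chr15:61815104-61815243 (number 562), had its midpoint 4.83 kb below that value, within its precision, and the next, chr15:61830843-61831004 (number 232), lay 10.9 kb above it. Further peaks lay 77.7 and 127 kb below. The other 8 peaks formed a group of 78.2 kb from 61905293 to 61983512, between 85.4 and 163 kb above the gene position, with a median distance of 9.33 kb between neighbours. In the order of RefSeq genes on build GRCm38.p6, leaving out genes with provisional symbols, the next gene on that side is Pvt1, a long noncoding RNA gene, and the next protein-coding gene is Gsdmc, a gasdermin. Whether the peaks lie in either was not examined, because that table is on another build.

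The Myc group held the 3 lowest name numbers of the locus. They were number 25 at chr15:61950785-61950939 (percentile 4.77 on chromosome 15), number 69 at chr15:61908222-61908380 (12.2) and number 118 at chr15:61914963-61915117 (20.2). The other 5 peaks of the group were at percentiles from 39.7 to 90.8, and the pair nearest to the gene position was at 68.7 and 37.0. The closest pair of the locus was also in the group, with midpoints 2.94 kb apart, formed by chr15:61905293-61905434 (number 249) and the peak with number 69.

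At Scd1 no listed peak lay in the gene position, 44.47 to 44.48 Mb, which is no longer than its precision, and 6 of the 7 peaks lay below it. These 6 spanned 101 kb from 44306139 to 44406645. The peak farthest from the gene was chr19:44306139-44306304 (number 137), 164 kb below and 6.22 kb from the edge of the window. It was 166 bp wide, the largest width in the list, and its percentile was 28.2. Next came chr19:44321193-44321352 (number 5), at percentile 1.17, with only 4 lower numbers listed on chromosome 19. It was the lowest name number among the 36 peaks and lay 149 kb below the gene. It was followed by chr19:44334088-44334234 (number 82), 136 kb below the gene at percentile 17.8. The remaining 3 on this side had higher numbers. They were chr19:44355943-44356029 (number 426), chr19:44374548-44374700 (number 188) and chr19:44406522-44406645 (number 684), which lay 114, 95.4 and 63.4 kb below. The single peak above the gene, chr19:44505043-44505126 (number 796), was also the nearest, at 25.1 kb, and had the highest percentile of the locus, 90.4. In the order of protein-coding RefSeq genes on GRCm38.p6, Scd1 is preceded by its relatives Scd4, Scd2 and Scd3, read outward from Scd1, and followed by Wnt8b, which encodes a Wnt ligand. The 6 peaks thus lay on the side of the other Scd genes, and which of those genes they are nearest to was not examined.

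At Prdm1 no listed peak lay in the gene position, 44.16 to 44.18 Mb, either. Longer Prdm1 transcripts that start outside this position are annotated, so a peak outside it can still lie in the gene. The nearest peak, chr10:44140153-44140296 (number 365), lay 19.8 kb below the gene position, and chr10:44129730-44129862 (number 529) lay 30.2 kb below. Prdm1 is on the minus strand, so both were past its downstream end, on the side of Atg5, an autophagy gene that is its neighbour in the order of protein-coding RefSeq genes on GRCm38.p6. Another peak on that side, chr10:44101296-44101452 (number 3031), lay 58.6 kb below. Above the gene, on the side of Prep, which encodes a peptidase, chr10:44239931-44240095 (number 530) lay 60.0 kb away and chr10:44376992-44377024 (number 3369), only 33 bp wide, lay 197 kb away. None of the 5 peaks was in the lowest 25% of the name numbers of chromosome 10.

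**Figure D2:**
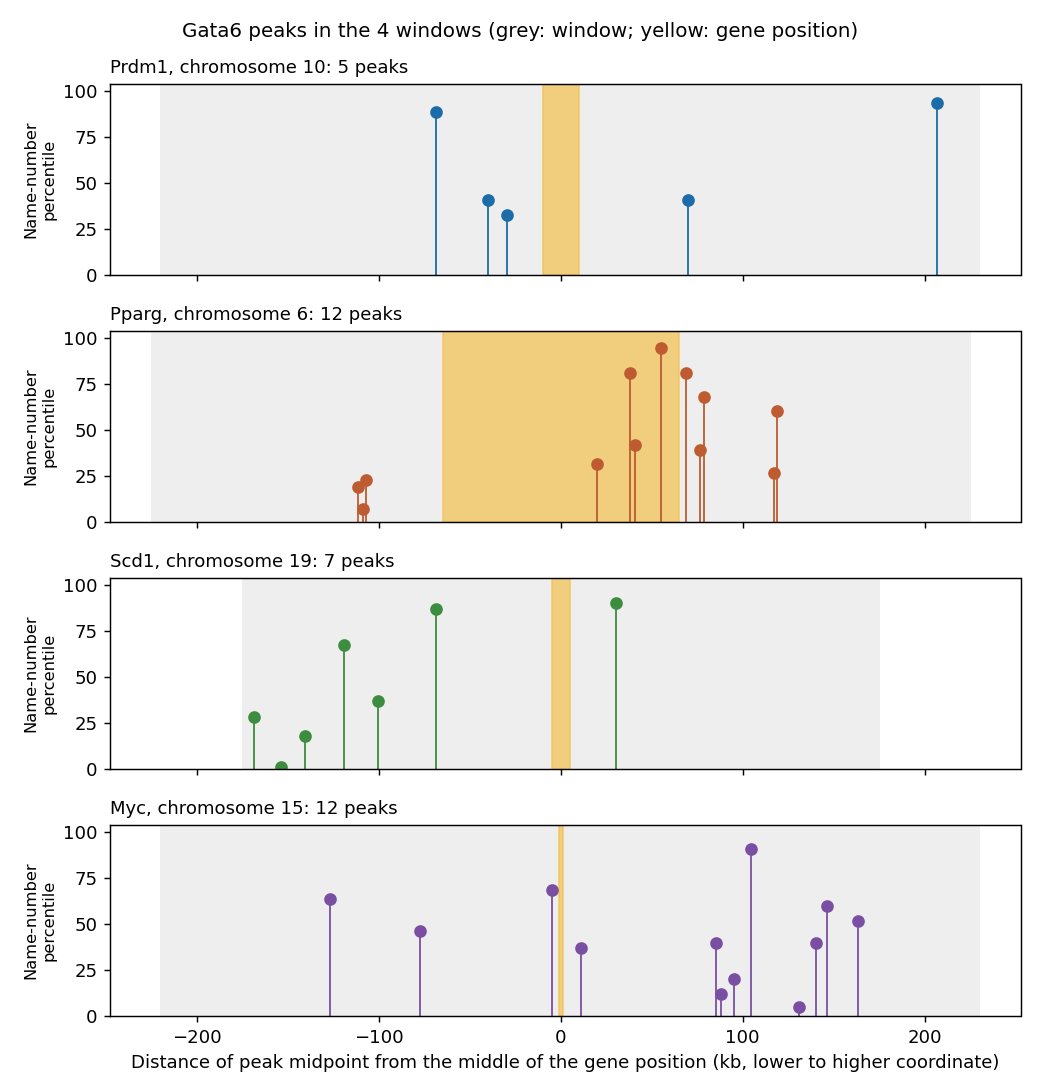
Position of each of the 36 Gata6 peaks in the 4 windows. The x axis gives the distance of the peak midpoint from the middle of the gene position in kb, the y axis the percentile of the name number among the listed numbers of the chromosome, grey the window and yellow the gene position. Pparg has 4 peaks inside its gene position, which at 130 kb is far longer than those of Prdm1 (20 kb) and Scd1 (10 kb), while that of Myc is a single value. Scd1 has 6 of its 7 peaks on the lower side, and Myc has 8 of its 12 in the group from 85.4 to 163 kb on the higher side.

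By density close to the gene, the loci came in another order than by window count. That order rests on few peaks, and no interval was computed for it. Within 100 kb of the gene position on either side, and outside it, there were 8 peaks at Pparg, or 6.28 times the density of the chromosome. Myc had 6 peaks there (5.71 times), Prdm1 4 (3.63 times) and Scd1 3 (2.04 times). Between 100 and 200 kb Myc had 6 further peaks (5.71 times). Scd1 had 6 there as well, all of them below the gene (4.08 times), of which 4 were members and the rest lay beyond the window. Pparg had 3 in this belt (2.36 times), all beyond its window, and Prdm1 1 (0.908 times). Prdm1 had 12 peaks between 200 and 500 kb, again 3.63 times, all of them outside its window. Between 500 and 1000 kb the density was 0.908 times that of the chromosome at Prdm1, 0.942 at Pparg, 1.22 at Scd1 and 1.90 at Myc, where all 10 peaks of this belt were below the gene. The excess thus extended past the windows, and the belts were chosen after the data were seen.

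**Figure D3:**
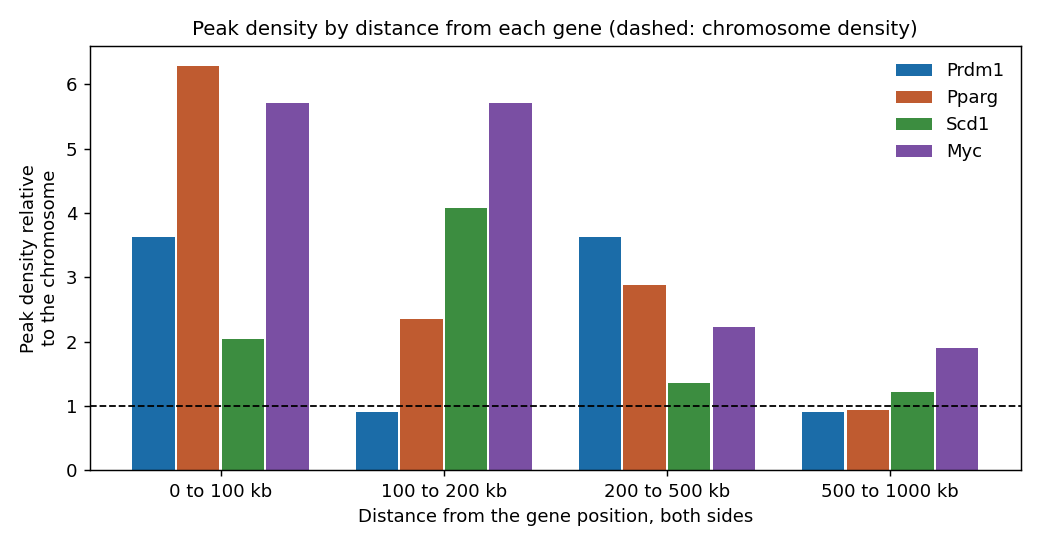
Peak density relative to the chromosome (y axis) in 4 belts of distance from the gene position, both sides together (x axis), with 1 bar per gene and a dashed line at the density of the chromosome. The Pparg bar is tallest within 100 kb, at 6.28, the Scd1 bar reaches its own maximum of 4.08 between 100 and 200 kb, where Myc is at 5.71, and all 4 genes are below 2 between 500 and 1000 kb.

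Peaks were most closely spaced at Pparg. Of the 12 Pparg peaks, 9 had another listed peak within 5 kb (75%, 95% Wilson interval 46.8 to 91.1), where 23.2% of all listed peaks and 25.3% (22.6 to 28.2) of those on chromosome 6 had one. Close neighbours are counted mutually, and these 9 are the trio and pairs of peaks. They are therefore not independent, and the intervals of these shares are too narrow. The share was 2 of 12 at Myc (16.7%, 4.70 to 44.8), and 0 of 7 at Scd1 and 0 of 5 at Prdm1, where the upper bounds were 35.4% and 43.4%. The shares of their chromosomes, 21.2%, 29.1% and 18.4%, lay inside these intervals. Distances in a window were taken between members only, whereas those of the chromosome include every neighbour. Left out were the distances across the window edges, such as 305 and 115 kb at Pparg and 207 and 71.5 kb at Myc. A fuller window also has shorter distances, so the spacing is not independent of the count. From one midpoint to the next, the median distance was 7.65 kb at Pparg, against 36.9 kb on chromosome 6, and 15.8 kb at Myc, against 44.5 kb on chromosome 15. At Scd1 it was 20.2 kb, against 31.3 kb on chromosome 19. At Prdm1 it was 64.1 kb, against 52.2 kb on chromosome 10, but this rests on the 33-bp peak at the far end of the window. Without peaks of 83 bp or less the Prdm1 median was 28.4 kb, against 61.1 kb on chromosome 10. Below the lower quartile of the chromosome were 6 of the 11 distances at Pparg, 5 of 11 at Myc, 1 of 4 at Prdm1 and 0 of 6 at Scd1.

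**Figure D4:**
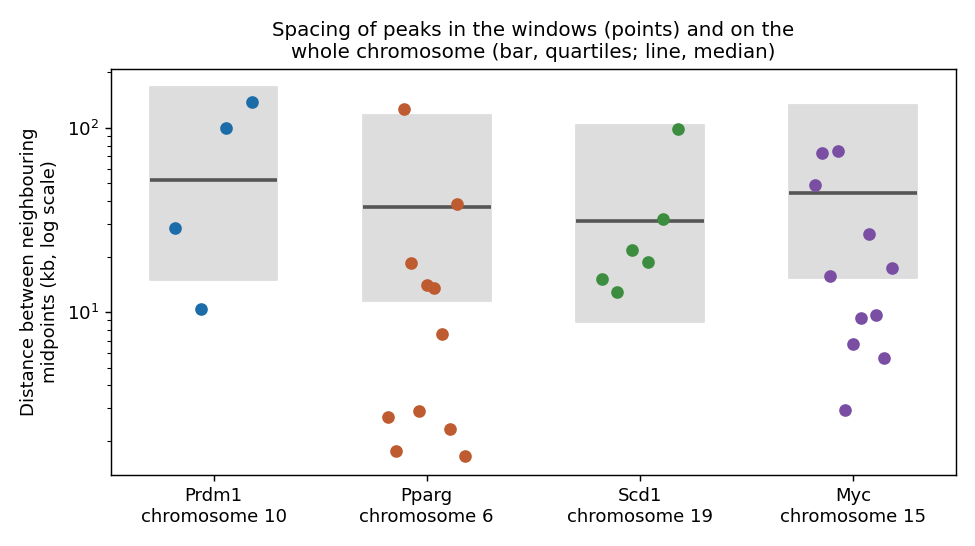
Distances between neighbouring peak midpoints (y axis, kb, log scale) in each window, as points in order of position from left to right, with the quartile range of the whole chromosome as a grey bar and its median as a line. Pparg has 6 of 11 points under the grey bar, Myc 5 of 11, Prdm1 1 of 4 and Scd1 0 of 6.

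Name numbers within the windows were spread over most of the range of their chromosomes. The median percentile was 40.7 at Prdm1, 40.5 at Pparg, 36.9 at Scd1 and 43.1 at Myc, and over all 36 peaks it was 40.6, against 50.1 over all listed peaks. In the lowest 25% of numbers there were 3 peaks of Pparg, 3 of Myc, 2 of Scd1 and 0 of Prdm1. These 8 of 36 (22.2%, 95% Wilson interval 11.7 to 38.1) compare with 24.9% of all listed peaks, a share inside the interval. The lower 50% held 21 of the 36 (58.3%, 42.2 to 72.9), against 50% of all listed peaks, a share also inside the interval. The numbers of Prdm1 peaks are not comparable in size with those elsewhere, since only 17.0% of the numbers up to the highest on chromosome 10 (4055) are listed, against 27.5% on chromosome 6, 33.0% on chromosome 19 and 36.9% on chromosome 15. In 3 cases a pair of members carried consecutive numbers. These were 529 and 530 at Prdm1 (110 kb apart, with 1 listed peak between them), 1281 and 1282 at Pparg (30.5 kb apart, with 2 between) and 249 and 250 at Myc (55.1 kb apart, with 4 between).

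Widths of the listed intervals were close to those of the rest of the list. The median was 144 bp at Prdm1, 147.5 bp at Pparg, 147 bp at Scd1 and 146 bp at Myc, against medians of 143, 145, 143.5 and 142 bp on their chromosomes. Of the 36 peaks, 2 were 83 bp wide or narrower (5.56%, 95% Wilson interval 1.54 to 18.1), against 9.11% of all listed peaks. They were the Prdm1 peak with number 3369, 33 bp wide, and the Pparg peak with number 1281, 51 bp wide. Their percentiles, 93.6 and 81.0, were both in the upper part of the numbers of their chromosomes. The narrowest intervals at Scd1 and Myc were 84 and 105 bp wide. The 36 intervals together covered 4928 bp.

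The windows depend on where their edges were set. The members next to an edge were the Scd1 peak 6.22 kb inside the lower edge and the Prdm1 peak 23.0 kb inside the upper one. The nearest listed peaks beyond an edge lay 4.92 kb past the Myc window, 9.01 kb past the Pparg window, 22.4 kb before the Scd1 window and 43.2 kb past the Prdm1 window. Within 100 kb outside the edges there were 5 further listed peaks at Prdm1, 5 at Pparg, 3 at Scd1 and 2 at Myc.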

How the data were processed

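The authors deposited 1 list of 12137 Gata6 peaks for the series, described as an overlap. Per the submitters' processing notes, BWA, HOMER and build mm9 were used, without versions or roles. The threshold for peaks, the overlap required and the role of both controls are not given in the sources consulted. The deposited score is 0 in every row and carries no peak strength. Per the labels' protocols, the precipitated complexes are of truncated Lef1. The sample titles instead name Gata6 or Flag, as do the antibody labels, and were followed.

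Peaks were placed by midpoint. Positions are 1-based, and widths are end minus deposited start. Chromosome density is the peak count over the span from first to last peak. Tiles start at multiples of the window width and lie within that span. Gene positions are approximate, to 10 kb. The 4 genes, their windows and the choice of measures were made with earlier results of these data known. Every peak was named where a window held 10 or fewer, otherwise the 3 lowest name numbers, the nearest, those inside the gene position and the closest pair. Peaks named besides these, groups joined at 50 kb and consecutive numbers were chosen after their values were seen. Without values per library no test over samples was possible, and Wilson intervals cover counting error only. Counting steps were tested on simulated data. Python 3.11.15, NumPy 2.4.6, pandas 2.3.3, SciPy 1.17.1 and matplotlib 3.10.9 were used.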

Additional observations from a re-analysis of the deposited data

How the results depend on the processing

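Of 76 alternative values, 58 stayed within 1.5 times the count, the interval or the spread used for comparison. This tally is lenient, since the intervals and spreads are wide. It includes the Prdm1 median distance of 28.4 kb against 64.1 kb, and the Scd1 density of 1.55 against 2.72 times. It also includes counts and median distances after merging peaks within 1 kb, which could not change. The peak density stayed above that of the chromosome, or of its median tile where that was the comparison, under all 24 alternatives tried for it. These alternatives all re-count the same list, and some of them could not lower the ratio. Merging peaks within 1 kb removed no member and only thinned the chromosome. The median tile held fewer peaks than the density of its chromosome would give. Neither is therefore support for the excess. The lowest ratio, 1.55 at Scd1 with windows 0.5 times as wide, rested on 2 peaks. With windows 2 times as wide the counts were 16 at Prdm1, 21 at Pparg and 12 at Scd1, and with windows 0.5 times as wide they were 2 at Scd1 and 7 at Myc. With only the lower 50% of name numbers they were 3 at Prdm1, 7 at Pparg, 4 at Scd1 and 7 at Myc, fewer by construction. Relative to the median tile, which held 1 peak, the density was 12 times at Pparg, 7 times at Scd1 and 12 times at Myc. As a percent of the highest number of the chromosome, the median name number was 13.1 at Prdm1, 13.1 at Pparg, 14.6 at Scd1 and 19.5 at Myc, a different scale by construction. The median distance from Pparg was 77.4 kb to the middle of the gene position. It was 12.4 kb when only distance outside the gene position was counted, with peaks inside it set at 0. The share of tiles with at least the Myc count was 0.905% with shifted tiles, an alternative added after seeing the data, against 3.17%, and the cause was not tested. No paired analysis was possible because the list holds no values per library, and for the same reason no library could be left out. Sites too weak for the depth of the libraries are missing from the list, in a number that cannot be told from it.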
